A study of Mus musculus with 10 samples.

Results

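The connexin genes *Gjb1*, *Gjb2*, *Gjb5*, *Gjb6* and *Gja1* were followed through bulk RNA-seq of handpicked cells of the mouse cochlea. They were found by gene symbol and make up 5 of the 34590 genes listed in each of 10 count files. A count file was read as the library that its name gives, because 4 of the 10 files are attached to the record of another sample. Each of 5 cell types had 2 libraries, which are named here by library number or, for mature hair cells, by the age of the animal in their label.

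Supporting cells (SCs) were taken at P26 and P27 from Fgfr3iCreER+ mice that carried the Cre-dependent reporter Rosa26-CAG-loxP-stop-loxP-tdTomato, which marks mainly Deiters' and pillar cells. Converted hair cells (cHCs) were taken at P33 from mice that carried the same alleles together with the Atoh1-HA transgene and the alpha9 AChR-EGFP reporter, and were picked as cells with both fluorescent labels. Tamoxifen was given to the SC and cHC mice to activate the recombinase. OHCs (P7) and OHCs (P22) came from prestin-YFP knock-in mice by the labels, which read as P21 for one OHC (P22) library and P22 for the other. For OHCs (P7) the study's summary of mouse lines gives a tamoxifen-inducible prestin Cre with tdTomato instead. Inner hair cells (IHCs) were taken at P74 and P75 from mice with this tdTomato reporter and Pval-Cre+, a driver that also labels OHCs more weakly. The study describes the libraries of a cell type as biological duplicates, without the animals that went into each, so the p-values measure the spread between 2 such samples per cell type.

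Connexins are the subunits of gap junctions. A hemichannel is a ring of connexin subunits in the cell membrane, and hemichannels of neighbouring cells dock into a channel that passes ions and small metabolites. In the cochlea, *Gjb2* and *Gjb6* encode the main connexins of the supporting cells and other epithelial cells and of the fibrocytes of the lateral wall, and loss of either can cause deafness. Mature hair cells are held not to be coupled to their neighbours by gap junctions. *Gja1* encodes the widespread connexin of heart and astrocytes, *Gjb1* that of liver and of myelinating Schwann cells, and *Gjb5* one found in skin and placenta.

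*Gjb2* (ENSMUSG00000046352) lies at chr14:57717437-57723539 on the minus strand of mm9, with 2 exons and 2406 bases of exon. *Gjb6* (ENSMUSG00000040055) lies at chr14:57742140-57752448 on the same strand, with 4 merged exons, 3 transcripts and 2269 bases of exon. The 2 genes are 18.6 kb apart. The promoter windows of both, from 250 bases before to 50 bases after the gene start, are shown because these neighbours had unequal levels across the cell types. They were taken from RefSeq (GRCm38.p6), at chr14:57104653-57104952 for *Gjb2* and at chr14:57133562-57133861 for *Gjb6*, both on the minus strand and written 5′ to 3′. Capitals mark GC boxes (GGGCGG) and E-boxes (CANNTG, the motif read by ATOH1 and other basic helix-loop-helix factors), searched on both strands.
Gjb2: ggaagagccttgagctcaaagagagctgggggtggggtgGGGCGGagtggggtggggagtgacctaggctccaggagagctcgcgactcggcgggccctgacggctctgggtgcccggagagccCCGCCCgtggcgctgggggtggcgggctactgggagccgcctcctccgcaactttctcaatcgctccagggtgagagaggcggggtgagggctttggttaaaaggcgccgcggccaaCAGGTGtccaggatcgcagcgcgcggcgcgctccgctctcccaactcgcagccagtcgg
Gjb6: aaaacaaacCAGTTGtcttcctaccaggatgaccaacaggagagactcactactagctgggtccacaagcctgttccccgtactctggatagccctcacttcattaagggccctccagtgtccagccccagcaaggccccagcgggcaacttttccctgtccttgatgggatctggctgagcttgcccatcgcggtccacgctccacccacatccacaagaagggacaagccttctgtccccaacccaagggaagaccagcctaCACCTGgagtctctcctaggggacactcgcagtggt

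The *Gjb2* window had a GC content of 70%, with 27 CpG sites. Of 32851 RefSeq promoter windows of this length, 9.58% had the same or a higher GC content and 15.5% had as many CpG sites or more. The *Gjb6* window had a GC content of 57.3%, with 6 CpG sites, against medians of 52.7% and 7 over all windows. The GC box occurred at 2 places in the *Gjb2* window and at 0 in the *Gjb6* window, and 35.7% of all windows held at least 1. The E-box occurred at 1 place in the *Gjb2* window and at 2 in the *Gjb6* window, and 72.3% of all windows held at least 1. Neither window held the TATA box TATAAA, which 13.6% of all windows held. These matches describe the letters of the windows, and no binding was measured.

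Library totals on genes ran from 15016129 to 40518766 counts, at which 3 counts amount to 0.0762 to 0.265 CPM after TMM scaling. Such floors and the intervals below cover counting error only, since the amplified cDNA carried no molecular identifiers and its reads are not independent. The OHC (P22) library of P21 had a TMM factor of 0.583, against 0.930 to 1.20 in the others. Its 10 highest genes held 41.3% of its counts, against 22.8% in the P22 library. It had the fewest genes detected (14332), and 25.5% of its total was not aligned, against 15.4% in the P22 library. The effect of this on its levels was not tested. The summed level of 8 hair cell markers (among them *Myo6*, *Myo7a* and *Otof*) was 360 to 362 CPM in SCs and 4004 to 8944 CPM in the 8 hair cell libraries. The summed level of 8 SC markers (*Sox2*, *Sox9*, *Sox10*, *Hes1*, *Jag1*, *Fgfr3*, *Prox1* and *Cdkn1b*) was 1479 to 1671 CPM in SCs, 881 to 1134 CPM in cHCs, 95.9 to 337 CPM in OHCs (P7), 9.48 to 10.3 CPM in OHCs (P22) and 271 to 280 CPM in IHCs. In OHCs (P22), 1 of the 8 SC markers, *Sox2*, was at 0 in both libraries. SCs, cHCs and OHCs (P7) have library numbers 11 to 16, and OHCs (P22) and IHCs have numbers of another series, so a contrast across the 2 series cannot be told apart from an effect of the series.

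*Gjb2* and *Gjb6* were the 2 of these 5 connexins detected above 3 counts, in every library, and *Gjb1*, *Gjb5* and *Gja1* were at or below 3 counts in every library. *Gjb2* ranged from 0.379 to 611 CPM and *Gjb6* from 0.421 to 313 CPM across the libraries. *Gjb5* had 0 counts in each of the 10 libraries, which allows a level of up to 0.0762 to 0.265 CPM. *Gja1* had 5 counts in all, namely 1 in SC 12, 2 in cHC 13 and 2 in OHC (P7) 15. *Gjb1* had 4 counts in all, namely 1 in the IHC library of P74 and 3 in the IHC library of P75, in which the sum of 5 Schwann cell markers was 46.4 and 127 CPM, and the part of such cells in these counts was not tested. Any difference in these 3 genes was therefore not detectable at this depth, and only *Gjb2* and *Gjb6* passed the filter on low counts. Without that filter *Gja1* and *Gjb1* had edgeR FDRs of at least 0.736 in each of the 11 comparisons, and *Gjb5* could not be tested.

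*Gjb2* was at 393 CPM in SC 11 and 124 CPM in SC 12. It was at 611 CPM in the IHC library of P74 and 468 CPM in the IHC library of P75, both above both SC libraries. In cHCs it was at 83.4 CPM in library 13 and 1.73 CPM in library 16. Both lay below both SC libraries, but the 2 cHC libraries were far from each other. In OHCs (P7) it was at 37.2 CPM in library 14 and 14.1 CPM in library 15, within the range of the cHC libraries. In OHCs (P22) it was at 0.794 CPM in the P21 library and 0.379 CPM in the P22 library, which were 9 counts in each. The mean levels thus ran from IHCs (540 CPM) through SCs (259 CPM), cHCs (42.6 CPM) and OHCs (P7) (25.7 CPM) to OHCs (P22) (0.586 CPM), and among neighbours in this order only cHCs and OHCs (P7) overlapped.

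**Figure D1:**
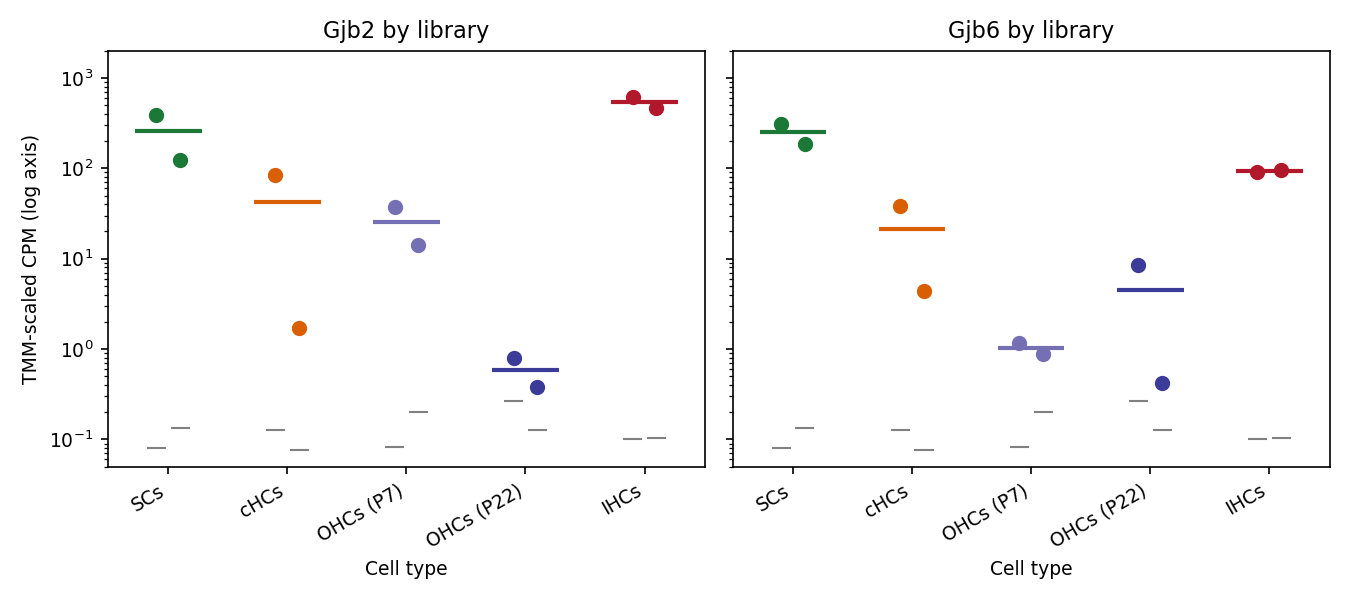
TMM-scaled CPM of Gjb2 (left) and Gjb6 (right) in each of 10 libraries, on a log axis, by cell type (2 points each). Coloured bars are the mean of the 2 libraries and short grey lines the level of 3 counts in each library. Gjb2 was lowest in OHCs (P22), at 0.379 and 0.794 CPM, and highest in IHCs, at 468 and 611 CPM, while Gjb6 was highest in SCs, at 185 and 313 CPM.

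*Gjb6* was at 313 CPM in SC 11 and 185 CPM in SC 12, above every other library. In IHCs it was at 89.9 CPM in the P74 library and 95.5 CPM in the P75 library. These were close to each other, below both SC libraries and above the other 6. In cHCs it was at 38.0 CPM in library 13 and 4.45 CPM in library 16. In OHCs (P22) it was at 8.55 CPM in the P21 library and 0.421 CPM in the P22 library, so these libraries overlapped those of cHCs. In OHCs (P7) it was at 1.17 CPM in library 14 and 0.873 CPM in library 15. The mean levels ran from SCs (249 CPM) through IHCs (92.7 CPM), cHCs (21.2 CPM) and OHCs (P22) (4.49 CPM) to OHCs (P7) (1.02 CPM), where OHCs (P22) overlapped both cHCs and OHCs (P7).

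To ask whether hair cells as a class had less connexin mRNA than SCs, the mean of OHCs (P7), OHCs (P22) and IHCs on the log scale (native hair cells) was compared with SCs. Both genes were lower in native hair cells. *Gjb2* fell by 3.70 ± 0.89 (SE) on the log2 scale, with an edgeR FDR of 0.0245, and *Gjb6* fell by 5.05 ± 0.88, with an edgeR FDR of 0.00504. Over all 16891 genes tested, 10.4% were called in this comparison and the median log2 fold change was 0.01. In these bulk samples fewer cells that express a gene and less of its mRNA in each cell cannot be told apart. The class was not uniform, since the log2 fold change of *Gjb2* was 1.06 ± 1.20 for IHCs against SCs, with an edgeR FDR of 0.684. With OHCs alone as native hair cells, the log2 fold changes were -6.15 for *Gjb2* and -6.96 for *Gjb6*, with edgeR FDRs of 0.0125 and 0.00631. Without SC 11 the *Gjb2* difference was -2.64 with an edgeR FDR of 0.148.

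Each native hair cell type was also compared with SCs on its own. In OHCs (P22), *Gjb2* fell by 8.82 ± 1.69 on the log2 scale, with an edgeR FDR of 0.00934, and *Gjb6* fell by 5.81 ± 1.43, with an edgeR FDR of 0.0308. In this comparison 8.02% of all genes were called. In OHCs (P7), *Gjb6* fell by 7.91 ± 1.57 on the log2 scale, with an edgeR FDR of 0.0197, whereas *Gjb2* had a log2 fold change of -3.33 ± 1.30 and an edgeR FDR of 0.203, where 3.41% of all genes were called. *Gjb2* passed there with DESeq2 (adjusted p of 0.0398). In IHCs neither gene passed the test, with a log2 fold change of -1.43 ± 1.18 and an edgeR FDR of 0.561 for *Gjb6*, where 2.65% of all genes were called. The call of *Gjb6* in OHCs (P7) was lost without library 14 (FDR 0.059) or library 15 (FDR 0.0707), and that in OHCs (P22) without SC 11 (FDR 0.0587), all in edgeR.

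The comparison of cHCs with SCs asks how far connexin mRNA changed in the cells in which Atoh1 was induced, and its libraries belong to 1 series. The cHCs and SCs also differed in age and in the labels by which they were picked, which cannot be told apart from conversion here. The log2 fold change was -2.60 ± 1.26 for *Gjb2*, with an edgeR FDR of 0.358, and -3.55 ± 1.28 for *Gjb6*, with an edgeR FDR of 0.241. Neither gene passed the test, *Gjb6* had an unadjusted p of 0.018 in edgeR, and 1.84% of all genes passed. *Gjb6* passed with DESeq2 (adjusted p of 0.0384) and limma-voom (FDR of 0.0217), and both genes passed in edgeR without the filter on low counts (FDRs of 0.0145 for *Gjb2* and 0.00836 for *Gjb6*). The log2 fold change of *Gjb2* was -7.23 without cHC 13 (edgeR FDR of 0.00462), -1.63 without cHC 16 (FDR of 0.681) and -1.54 without SC 11 (FDR of 0.694). That of *Gjb6* ran from -5.81 without cHC 13 (edgeR FDR of 0.0991) to -2.71 without cHC 16 (FDR of 0.649).

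Against native hair cells, cHCs did not differ detectably in either connexin. The log2 fold change of native hair cells over cHCs was -1.09 ± 0.93 for *Gjb2*, with an edgeR FDR of 0.613, and -1.50 ± 0.89 for *Gjb6*, with an edgeR FDR of 0.416, where 4.26% of all genes were called. In this pooled comparison neither gene had an unadjusted p under 0.05 in edgeR or passed with DESeq2 or limma-voom. Both of its directions turned without cHC 13, to 3.53 for *Gjb2* and 0.76 for *Gjb6*. Without the filter on low counts, the unadjusted p in edgeR was 0.0264 for *Gjb2* and 0.0152 for *Gjb6*, with FDRs of 0.179 and 0.123. With OHCs alone as native hair cells, the log2 fold changes over cHCs were -3.59 for *Gjb2* and -3.44 for *Gjb6*. Their unadjusted p in edgeR was 0.00962 and 0.00845, with FDRs of 0.12 and 0.114. By cell type, *Gjb2* in OHCs (P22) had a log2 fold change of -6.22 ± 1.53 over cHCs, just outside the threshold at an edgeR FDR of 0.0534, where 3.18% of all genes were called. *Gjb2* passed with DESeq2 (adjusted p of 4.22e-05), and in edgeR without cHC 16 (FDR of 0.0015), but was -1.60 without cHC 13 (edgeR FDR of 0.548) and -3.88 with limma-voom (FDR of 0.495). The log2 fold change of *Gjb6* in OHCs (P22) over cHCs was -2.26, with an edgeR FDR of 0.340, and -0.0073 without cHC 13 or -5.69 without the OHC (P22) library of P21. In OHCs (P7) it was -0.73 for *Gjb2* and -4.36 for *Gjb6*, with edgeR FDRs of 0.906 and 0.270, where 0.343% of all genes were called. *Gjb6* passed there with DESeq2 (adjusted p of 0.00762) and in edgeR without the filter on low counts (FDR of 0.000759), and was -2.10 without cHC 13, where *Gjb2* turned to 3.90. In IHCs it was 3.67 ± 1.31 for *Gjb2* and 2.13 for *Gjb6*, with edgeR FDRs of 0.307 and 0.480, where 0.924% of all genes were called. *Gjb2* in IHCs over cHCs passed with DESeq2 (adjusted p of 0.0439) and limma-voom (FDR of 0.0323), and in edgeR without cHC 13 (8.28, FDR of 0.00608), and was 2.69 without cHC 16 (edgeR FDR of 0.426).

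IHCs had more *Gjb2* than OHCs (P22) by a log2 fold change of 9.88 ± 1.76, with an edgeR FDR of 0.0252. This was the 1 rise among the connexin tests, in a comparison within 1 series of libraries in which 1.46% of all genes were called. IHCs and OHCs (P22) also differed in age and mouse line, which cannot be told apart from cell type here. *Gjb6* had a log2 fold change of 4.38 ± 1.34 in the same comparison, with an edgeR FDR of 0.152, and passed with DESeq2 (adjusted p of 0.0093). The call of *Gjb2* was lost with limma-voom (FDR of 0.0814), and in edgeR without the OHC (P22) library of P21 (FDR of 0.107) or that of P22 (FDR of 0.0668), while its log2 fold change stayed between 9.40 and 10.4 in all 10 alternatives run for this comparison.

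Between OHCs (P7) and OHCs (P22), the fitted values of the 2 genes went in opposite directions. The log2 fold change of OHCs (P22) over OHCs (P7) was -5.49 ± 1.48 for *Gjb2*, with an edgeR FDR of 0.146, and 2.10 ± 1.24 for *Gjb6*, with an edgeR FDR of 0.454. Neither passed the test, and 0.551% of all genes did. *Gjb2* passed with DESeq2 (adjusted p of 0.00114). The value for *Gjb6* rested on the OHC (P22) library of P21, which had the lowest TMM factor, and was -1.27 without that library.

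**Figure D2:**
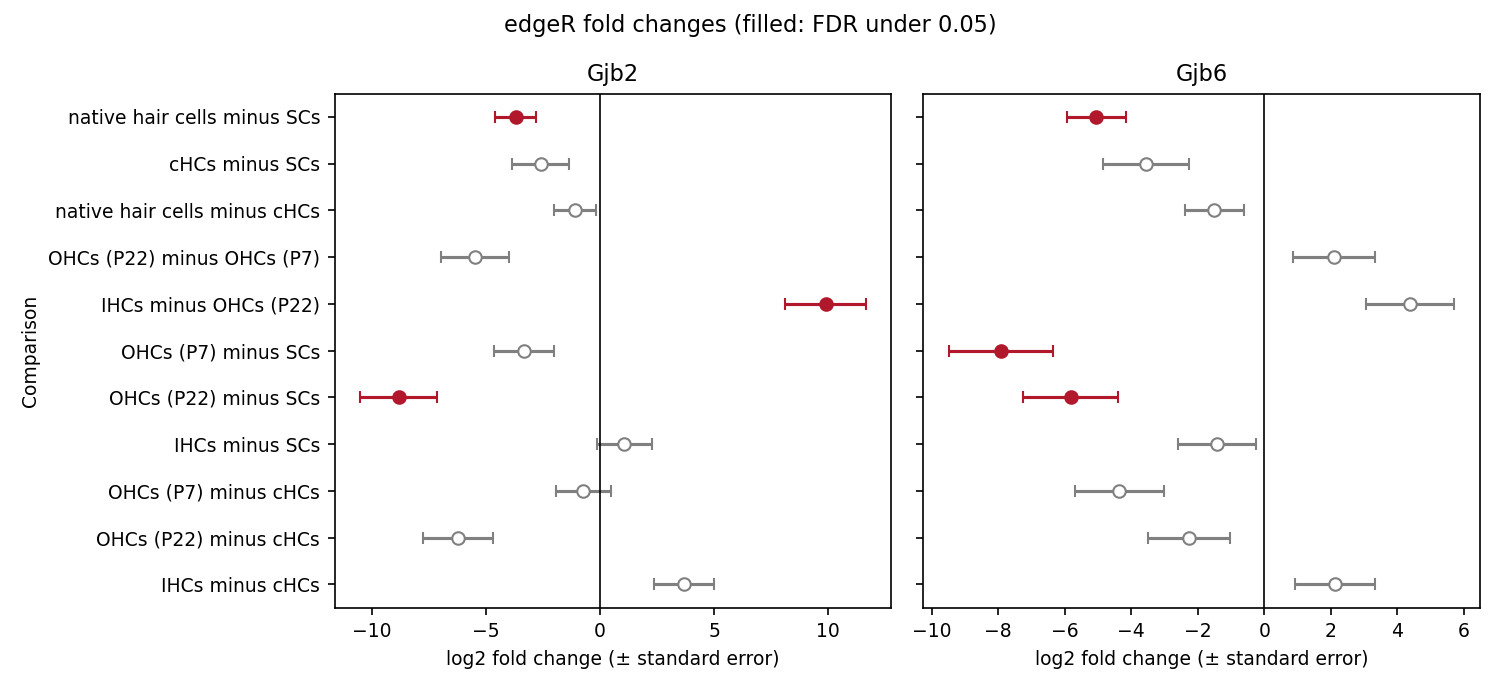
Log2 fold changes of Gjb2 (left) and Gjb6 (right) in 11 comparisons, the first cell type over the second, fitted by edgeR in 1 model of 10 libraries. Bars are standard errors, and filled red points have an FDR under 0.05. Gjb2 ran from -8.82 in OHCs (P22) against SCs to 9.88 in IHCs against OHCs (P22). The comparisons share libraries and are not independent of each other.

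The balance of the 2 connexins differed among cell types. It was measured as the ratio of *Gjb2* to *Gjb6* counts, each divided by the exon length of its gene, with a 95% exact binomial interval. In SCs the ratio was 1.18 (1.16 to 1.21) in library 11 and 0.632 (0.602 to 0.663) in library 12. In IHCs it was 6.41 (6.15 to 6.68) in the P74 library and 4.62 (4.44 to 4.82) in the P75 library. In OHCs (P7) it was 29.9 (22.1 to 41.5) in library 14 and 15.2 (8.72 to 29.1) in library 15, the highest of all cell types. The OHC (P7), IHC and SC libraries did not overlap in this ratio. In cHCs it was 2.07 (1.91 to 2.24) in library 13 and 0.366 (0.273 to 0.488) in library 16, on both sides of the SC libraries. In OHCs (P22) it was 0.0875 (0.0389 to 0.173) in the P21 library and 0.849 (0.305 to 2.32) in the P22 library, where 9 counts of *Gjb2* limit the precision in each. *Gjb2* was the higher of the 2 per length in 6 of 10 libraries. The differences in ratio between cell types were not tested.

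**Figure D3:**
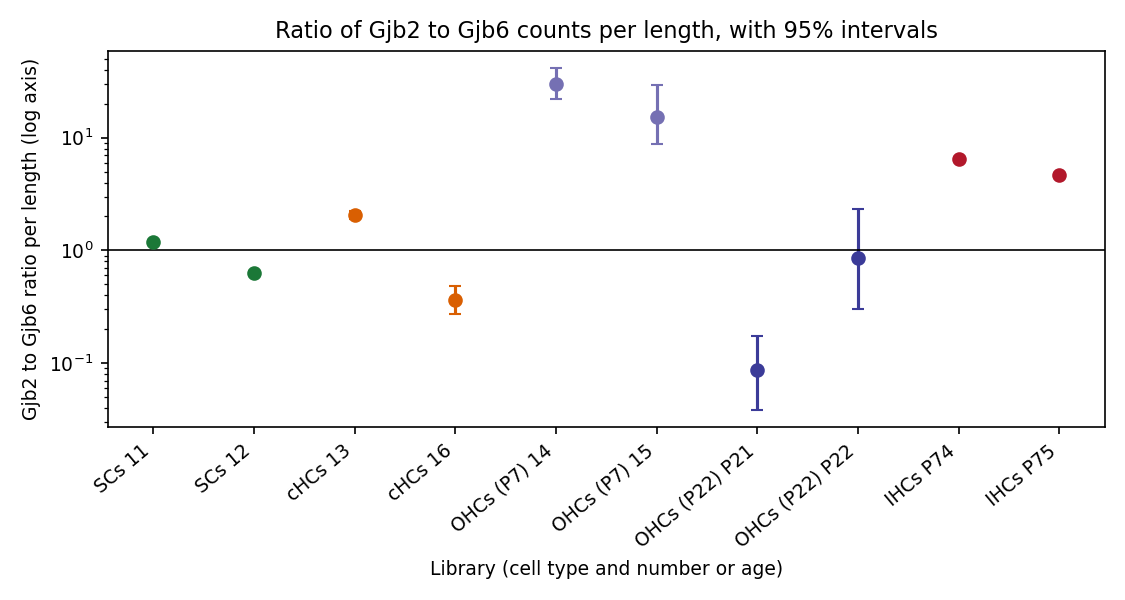
Ratio of Gjb2 to Gjb6 counts per exon length in each library, on a log axis. Bars are 95% exact binomial intervals, smaller than the point where not seen, and the line marks equal levels. OHCs (P7) had ratios of 15.2 and 29.9, IHCs of 4.62 and 6.41, and SCs of 0.632 and 1.18.

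Across all 20 connexin genes, *Gjb2* and *Gjb6* together took 99.97% of connexin counts in SC 11 (95% exact binomial interval 99.94% to 99.98%) and 99.58% in SC 12 (99.40% to 99.72%). In IHCs they took 99.91% and 99.82%, and in OHCs (P7) 97.9% and 94.9%. In cHC 13 they took 88.2% (87.0% to 89.3%) and in cHC 16 64.6% (59.6% to 69.5%). In OHCs (P22) they took 63.5% (55.7% to 70.8%) of 167 connexin counts in the P21 library and 34.5% (22.2% to 48.6%) of 55 in the P22 library. The share was thus lowest in OHCs (P22) and cHC 16. Connexin counts were 376 in cHC 16, and 235 in OHC (P7) 15, where the share was 94.9%. The part of low counts in these shares was not tested. Single genes in single libraries added to the rest, with 325 counts of *Gjd2* in cHC 13 and 60 of *Gjc3* in the OHC (P22) library of P21.

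Of the 15 other connexins, 4 had no counts, *Gja3* and *Gja10* among them, and 12 had a mean under 1 CPM in every cell type. *Gjd2* and *Gjc3* were among the 3 that reached a mean of 1 CPM, each through a single library. *Gjd2*, the connexin of electrical synapses between neurons, was at 13.8 CPM in cHC 13 (325 counts) and 0.152 CPM in cHC 16. Its locus overlaps *A530058N18Rik* and *RP23-230H3.2*, and the effect of this overlap on its counts was not tested. *Gjc3*, a connexin of myelinating glia, was at 5.29 CPM in the OHC (P22) library of P21 (60 counts). The summed level of 5 Schwann cell markers was 22.6 to 25.8 CPM in SCs, 20.2 to 25.3 CPM in cHCs, 0.0818 to 11.1 CPM in OHCs (P7), 3.16 to 81.5 CPM in OHCs (P22) and 46.4 to 127 CPM in IHCs, with *Mag* at 0 in the native hair cells, and its part in these levels was not tested. *Gjc3* was tested and had a log2 fold change of 1.64 in native hair cells over SCs, with an edgeR FDR of 0.687.

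The pannexins, which form channels in the membrane of a single cell, were followed beside the connexins. *Panx1* was at 41.5 CPM in OHC (P7) 14 and 9.74 CPM in OHC (P7) 15, at 4.77 CPM in cHC 13 and 0.686 CPM in cHC 16, and at or below 0.0882 CPM in the other 6 libraries. It was highest in both OHC (P7) libraries, but its log2 fold change of 2.40 ± 2.03 in native hair cells over SCs had an edgeR FDR of 0.510. *Panx2* was highest in cHC 16, at 4.19 CPM, against 0.0426 CPM in cHC 13, and reached 2.29 CPM at most in native hair cells and 1.38 CPM at most in SCs.

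**Figure D4:**
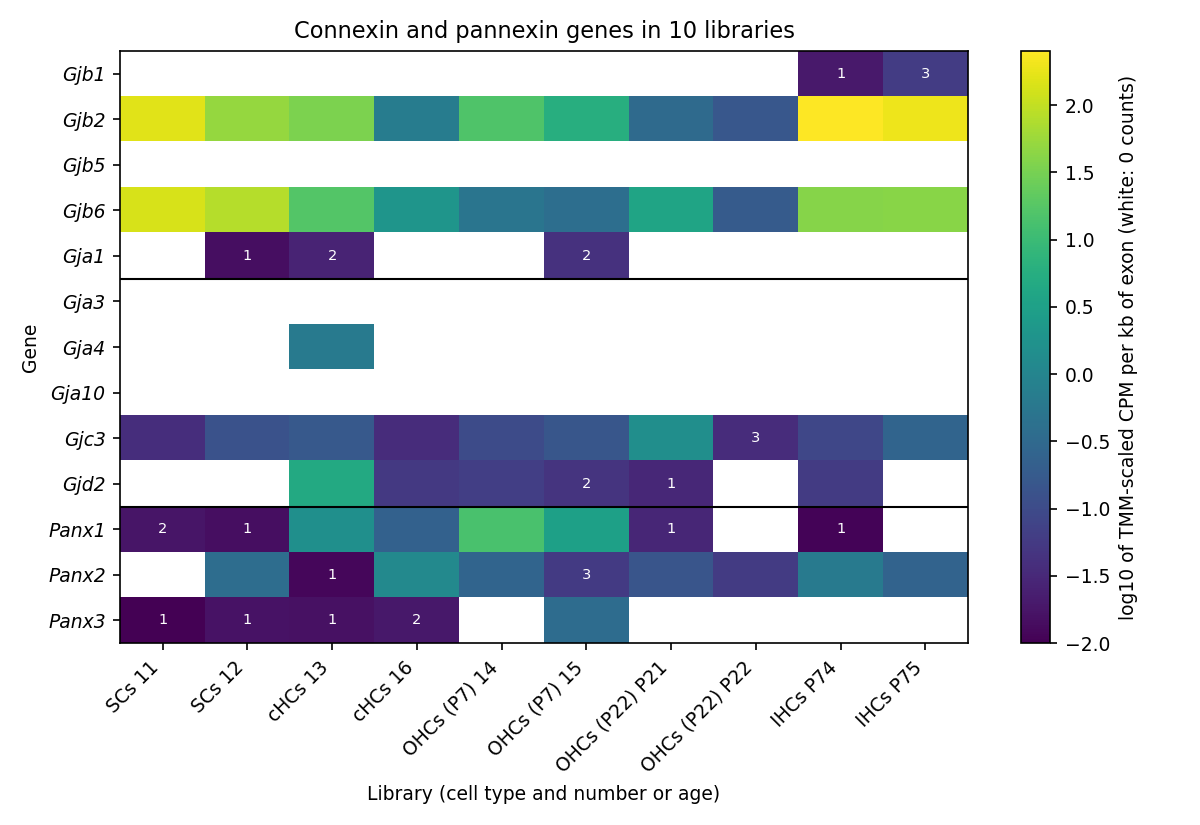
Level of the 5 connexins described in the text, 5 other connexins and 3 pannexins (rows, separated by lines) in 10 libraries (columns), as log10 of TMM-scaled CPM per kb of exon. White cells have 0 counts and cells with 1 to 3 counts show that number. Gjb2 and Gjb6 had counts in all 10 libraries, and Gjb5 in none.

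The genomic neighbours of *Gjb2* and *Gjb6* did not share their pattern as a block. *Gja3*, the next gene beyond *Gjb2* and a connexin of the lens, had 0 counts in all libraries. *Zmym2* was at 61.1 to 215 CPM and *Ift88* at 11.3 to 47.3 CPM across all cell types. *Cryl1*, beyond *Gjb6*, was at 15.7 to 58.6 CPM in SCs, 0.172 to 12.7 CPM in IHCs and 0 to 12.8 CPM in cHCs. It was at 0 to 0.0273 CPM in OHCs (P7) and 0 in OHCs (P22), so it was highest in SCs, as *Gjb6* was. *Gm4491*, between the 2 connexins, was at 2.13 to 2.83 CPM in IHCs and at or below 0.267 CPM in all other cell types.

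*Gjb5* (ENSMUSG00000042357) lies at chr4:127032053-127035425 on the minus strand of mm9. *Gja4*, a connexin of blood vessels on the same chromosome, had 26 counts (1.11 CPM) in cHC 13 and 0 in the other 9 libraries. *Gja1* (ENSMUSG00000050953) lies at chr10:56097106-56110225 and *Gjb1* (ENSMUSG00000047797) at chrX:98571717-98580968, both on the plus strand. Markers of skin and vessel cells were followed beside these genes. Of 6 keratinocyte markers, *Krt5*, *Krt14* and *Lor* were at 0 in all libraries, whereas *Krt10* was at 5.46 to 24.7 CPM in SCs and 3.96 to 12.5 CPM in cHCs and *Dsg3* at 6.93 CPM in SC 12 and 6.0 CPM in cHC 13. The sum of these 6 was 12.4 to 24.7 CPM in SCs, 5.21 to 18.5 CPM in cHCs and 2.06 CPM at most in native hair cells. The sum of 5 endothelial markers was 12.1 CPM at most, with *Kdr* at 0 throughout. The sum of 5 immune markers was at most 18.3 CPM, and that of 3 haemoglobin genes was 28.0 to 38.2 CPM in IHCs and at most 1.43 CPM in the other cell types.

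Connexin levels were set beside the SC markers because a connexin in a hair cell library could come with other SC mRNA. *Gjb2* amounted to 23.5% and 8.38% of the SC marker sum in SCs (libraries 11 and 12) and to 219% and 173% in IHCs (P74 and P75). IHCs therefore had more *Gjb2* relative to this sum than SCs had. The ratio depends on the markers summed, among them *Fgfr3* at 17.3 and 0 CPM in IHCs and 312 and 167 CPM in SCs. *Slc1a3*, a marker of the inner phalangeal and border cells that surround IHCs, was at 243 and 193 CPM in IHCs and at 129 and 76.6 CPM in SCs. *Fabp7*, the other marker listed for these cells, went the other way, with means of 15.7 CPM in IHCs and 203 CPM in SCs. Its IHC and SC libraries overlapped. Neither marker passed the test of IHCs over SCs. The log2 fold change was 1.1 for *Slc1a3* (edgeR FDR of 0.767) and -3.70 for *Fabp7* (edgeR FDR of 0.466). *Gjb6* amounted to 32.2% and 35.3% of the SC marker sum in IHCs, against 18.7% and 12.5% in SCs. The part of mRNA from surrounding cells in the IHC levels was not tested.

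The 2 cHC libraries had SC marker sums of 1134 CPM in library 13 and 881 CPM in library 16, but very different connexin levels. Most of both sums was *Fgfr3* (458 and 431 CPM) and *Prox1* (247 and 293.5 CPM). These 2 genes were lower in SCs, with *Fgfr3* at 312 and 167 CPM and *Prox1* at 53.7 and 14.7 CPM. The sum in cHCs therefore does not measure SC mRNA alone, and the percentages of it depend on these 2 genes. The other SC markers were each lower in library 16. *Sox9* was at 126 and 16.0 CPM, *Sox10* at 56.9 and 5.7 CPM and *Sox2* at 30.9 and 6.9 CPM. *Gjb2* amounted to 7.36% of the SC marker sum in library 13 and 0.196% in library 16, and *Gjb6* to 3.35% and 0.505%. *Slc1a3* was at 78.0 CPM in library 13 and 0.330 CPM in library 16. Marker sums of other connexin-expressing cells also differed between the 2 libraries, mostly through *Lum* and *Epyc*. Both of these genes were highest in SCs. The summed level of 6 fibrocyte markers was 705 to 812 CPM in SCs, mostly *Lum*, with *Pou3f4* at or below 0.133 CPM. In cHC 13 it was 196 CPM, against 16.4 CPM in cHC 16. This difference was mostly *Lum*, at 178 and 6.6 CPM, whereas *Col1a1* was at 6.25 and 9.40 CPM. The sum was 53.2 to 405 CPM in OHCs (P7), 3.09 to 3.37 CPM in OHCs (P22) and 39.2 to 130 CPM in IHCs. In IHCs *Pou3f4* and *Col3a1* were at 0 in both libraries. The summed level of 5 genes of the lateral wall epithelium and its neighbours was 2661 to 2768 CPM in SCs, 922 CPM in cHC 13 and 4.98 CPM in cHC 16. It was 3.37 to 247 CPM in OHCs and 69.6 to 188 CPM in IHCs. *Epyc* alone of this list was at 2661 to 2767 CPM in SCs, 919.5 CPM in cHC 13 and 4.34 CPM in cHC 16. It was at 247 CPM in OHC (P7) 15 and at 62.1 and 175 CPM in IHCs. *Slc26a4*, a defining gene of that list, was at or below 0.0266 CPM in SCs and at 0 in cHCs. The part of such cells in the connexin levels was not tested. In OHCs (P22), where the SC marker sum was near 10 CPM, *Gjb6* amounted to 82.9% of it in the P21 library and 4.44% in the P22 library.

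**Figure D5:**
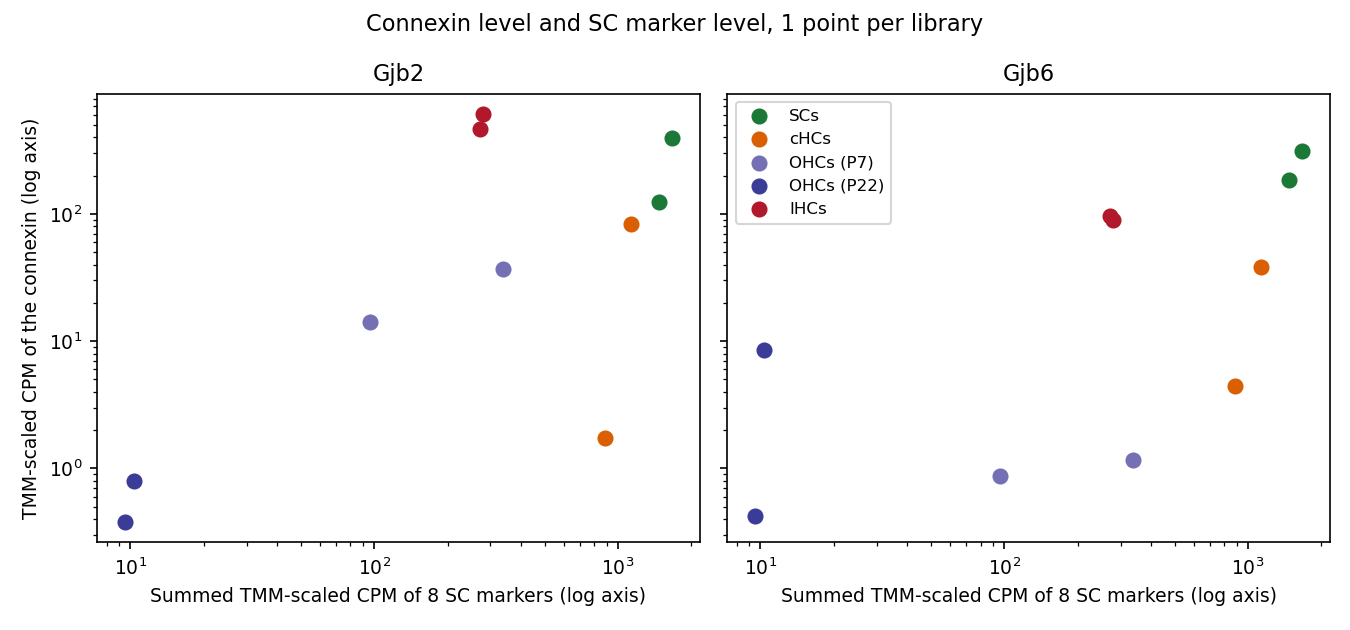
Level of Gjb2 (left) and Gjb6 (right) against the summed level of 8 SC marker genes, both as TMM-scaled CPM on log axes, 1 point per library, coloured by cell type. IHCs lie above the SC libraries in Gjb2 at a marker sum of 271 to 280 CPM. The 2 cHC libraries differ in Gjb2 (83.4 and 1.73 CPM) at marker sums of 1134 and 881 CPM. In both cHC libraries most of this sum was Fgfr3 and Prox1, which were each higher there than in SCs.

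Genes that act with gap junctions were counted in 3 lists. Of 9 genes for potassium handling, 4 were lower in native hair cells than in SCs and 0 higher, with a median log2 fold change of -1.69. Among them were *Kcnj16*, an inwardly rectifying potassium channel (-6.38, FDR of 0.00431), *Atp1b1*, a subunit of the sodium pump (-2.08, FDR of 0.0058), and the potassium-chloride cotransporter *Slc12a7* (-1.82, FDR of 0.0344), all in edgeR. *Kcnj10*, the potassium channel that pairs with *Kcnj16*, had a log2 fold change of -3.85 and an edgeR FDR of 0.123. Of 8 scaffold, adhesion and trafficking partners of connexins, 2 were lower and 0 higher, with a median of -0.17. These were *Cdh1*, which encodes E-cadherin (-4.59, FDR of 6.61e-05), and *Cav1*, which encodes caveolin (-8.30, FDR of 0.017). Of 7 tested genes for ATP and calcium signalling, 1 was lower and 0 higher, *Itpr1*, a calcium release channel (-3.95, FDR of 0.00158), with a median of -2.63. Against 10.4% of all genes called, these counts describe the lists only.

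In cHCs against SCs, 0 of the 24 tested genes of these 3 lists passed edgeR's test, where 1.84% of all genes passed. Of the 24, 8 had an unadjusted p under 0.05 in edgeR, 3 passed with DESeq2 and 5 with limma-voom. The shares of all genes for these last counts are not given here, so the counts describe the lists only. The median log2 fold changes were -0.56 for potassium handling, 0.24 for the partners and -0.57 for ATP and calcium signalling, beside 0.03 over all genes. *Cdh1* was at 524 and 547 CPM in cHCs and at 213 and 256 CPM in SCs, with an edgeR FDR of 0.309. *Kcnj16* was at 806 CPM in cHC 13 and 14.3 CPM in cHC 16, and *Kcnj10* at 220 and 1.73 CPM, so both were high and low in the same cHC libraries as the connexins.

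The genes most like each connexin were found by Pearson's r of log2 CPM over the 10 libraries, among the other 16890 genes tested. For *Gjb2* these were *Fam101b* (r of 0.949), *Fblim1* (0.945), which encodes a protein of cell-matrix adhesions, and *Rlbp1* (0.941), which encodes a retinal-binding protein of glia. *Fblim1* was at 605 and 1840 CPM in IHCs and 686 and 214 CPM in SCs, and between 0.758 and 1.32 CPM in OHCs (P22). For *Gjb6* they were *Camta1* (0.961), *Rgma* (0.960) and *Capn5* (0.957). *Rgma*, a guidance molecule of axons, was at 59.3 and 44.1 CPM in SCs and between 0.0421 and 0.353 CPM in the 4 OHC libraries. *Gjb6* ranked 384 among the genes like *Gjb2*, with r of 0.770. The libraries of a cell type share their cells' identity and series, so these values are a description over 5 cell types.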

How the data were processed

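RNA of handpicked cells was made into cDNA, which single primer isothermal amplification multiplied before sequencing. According to the methods, the authors trimmed adapters, mapped paired-end reads to mm9 (STAR, BWA) and counted reads per gene (HTSeq). The deposited values are raw counts per gene by symbol, without normalization. Rows that name no gene were left out of library sizes, and reads on no annotated feature came to 26.5% to 50.4% of the totals in the files.

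The file of each library was checked against the CPM columns of the study's supplementary table. The ratio of CPM to counts was constant for 1 file per library (coefficient of variation at most 0.000138%, against at least 170% for other files). An alternative took each file for the record that holds it.

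Counts were tested with edgeR 4.0.16 (TMM, filterByExpr, quasi-likelihood F-tests, 2-sided) in R 4.3.3, in 1 model of 10 libraries and 5 cell types, with Benjamini-Hochberg adjustment over 16891 genes and a threshold of 0.05. The common dispersion was 1.12. CPM are scaled by TMM factors, and log2 CPM for correlations had a prior count of 2. Levels of different genes were compared per merged exon length (GENCODE, mm9). Alternatives were DESeq2 1.42.0, limma 3.58.1 with voom (the study's method), DESeq2's size factors within edgeR, no filter, only the cell types compared, leaving out each library, and OHCs alone as native hair cells, which was added after seeing the data. The scripts were tested on simulated data.

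The connexins, gene lists and tests were chosen with earlier results of these data known. The text names all 5 connexins, other connexins and pannexins with a mean of at least 1 CPM in a cell type, list genes that passed the test in native hair cells or cHCs against SCs, and the 3 genes most like each connexin. *Kcnj10*, *Gja4*, and *Cdh1* and *Kcnj16* in cHCs were named after their values were seen. Some genes that these rules would name are not reported here.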

Additional observations from a re-analysis of the deposited data

How the results depend on the processing

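Over 240 alternative values of *Gjb2* and *Gjb6*, 198 kept their direction and side of the threshold, 13 fell short of it, 20 newly passed it and 9 changed direction. The number of connexins called lower in native hair cells than in SCs was 2, and 0 with the files as attached to the records. It was 1 to 2 when libraries were left out (1 without SC 11). In cHCs against SCs it was 0, with 1 by DESeq2, 1 by limma-voom, 2 without the filter on low counts and 0 to 1 with libraries left out (1 without cHC 13). In IHCs against OHCs (P22) it was 1, with 2 by DESeq2, 0 by limma-voom, 2 without the filter, 0 with the files as attached and 0 to 1 with libraries left out (0 without the OHC (P22) library of P21 or that of P22). In OHCs (P22) against OHCs (P7) it was 0, with 1 by DESeq2 and 1 without the filter. In native hair cells against cHCs it was 0 under each of the 15 alternatives.

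With the files as attached to the records, the log2 fold change of cHCs over SCs was 0.97 for *Gjb2* and 0.49 for *Gjb6*, and that of IHCs over cHCs was -0.76 for *Gjb6*. These values compare other samples by construction. With limma-voom, *Gjb2* was 1.25 in native hair cells over cHCs and 1.66 in OHCs (P7) over cHCs. With libraries left out, these 2 values ranged from -2.07 to 3.53 and from -1.73 to 3.90, *Gjb6* in native hair cells over cHCs from -2.68 to 0.76, and *Gjb6* in OHCs (P22) over OHCs (P7) from -1.27 to 3.04. The positive values among the first 3 came without cHC 13, and the negative value of the last without the OHC (P22) library of P21. The cause of the other changes was not tested.

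Of the 6 genes named as most like a connexin, 2 stayed among the first 3 with Spearman's rho and 5 with a prior count of 0.5. *Gjb2* was above *Gjb6* per length in 6 libraries with either measure of length. *Gjb1*, *Gjb5* and *Gja1* had at most 3 counts per library, so differences in them could not be seen at this depth, and 2 libraries per cell type limit every test. No paired analysis was possible because no library number is shared between cell types.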
